A study of Mus musculus with 12 samples.

Results

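Brain tissue next to a hematoma was compared with tissue from sham-operated brains in mice that carried the floxed Fabp4 allele and no Cre-mediated deletion. The comparison used the 3 libraries labelled ICH-Fabp4flox/flox and the 3 labelled Sham-Fabp4flox/flox, which are 6 of the 12 libraries of the series, and all 21956 genes of its count table. In the ICH (intracerebral hemorrhage) group, collagenase was injected stereotactically into the right striatum, and mice that died or showed no neurological deficit were not kept in the study. Tissue within 1 to 2 mm of the hematoma was taken 48 h later and its polyadenylated RNA was sequenced, and the sham group had the same surgery without collagenase. The other 6 libraries came from Fabp4CKO mice, in which a tamoxifen-inducible Cre recombinase driven by the Tmem119 promoter removes Fabp4 from microglia. Whether the floxed controls received tamoxifen, and their age and sex, are not given in the sources used here. Y-linked genes, which only male tissue expresses, had 1302 to 1793 counts in the 6 libraries compared. Each library is 1 labelled sample and is called a mouse below. The labels do not say more about its origin, so that the p-values measure the spread between these samples.

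A hemorrhage into the striatum tears tissue apart, floods it with plasma proteins and red cells, and leaves hemoglobin whose heme and iron must be detoxified and stored. Resident microglia and astrocytes react within hours, blood-borne neutrophils and monocytes enter through an activated endothelium, and neurons around the clot are injured or lost. The collagenase model opens the vessel wall by digesting its basement membrane, so that bleeding and matrix damage come together. In bulk tissue, fewer cells of a type and less RNA per cell cannot be told apart, and each value below is a share of the RNA of a mixed sample.

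The total counts ranged from 17562598 to 19838554 in the sham mice and from 15820722 to 18818174 in the ICH mice. Mitochondrially encoded genes took 16.3% of the counts in ICH mouse 1 and 8.51% to 11.9% in the other 5 libraries. Of 14719 genes that passed the filter on low counts, 26.2% rose after ICH and 19.3% fell. Each count of list genes called higher or lower below is to be read against these shares. The test was the quasi-likelihood test of edgeR, a gene was called where its Benjamini-Hochberg adjusted p was under 0.05, and the standard error (SE) follows the ± sign beside each log2 fold change below. The 3 ICH mice lay above all 3 sham mice for 33.6% of the genes and below them for 28.4%, so that the groups did not overlap for 61.9%. A change of at least 4-fold in level was called upwards for 1364 genes (9.27%) and downwards for 430 (2.92%). The median log2 fold change over all tested genes was 0.02, and 90% of the genes lay between -1.62 and 3.04, so that large rises were more common than large falls. Of the 247 called genes among those chosen to be named, 195 kept their call in every fit that leaves out 1 mouse and tested them, and 52 lost it in at least 1. The count of falls changed more than that of rises when 1 mouse was left out. A fit of fewer mice also has less power to call a gene, and this was not separated from the part of the mouse itself. Without ICH mouse 2, 1465 genes were called lower, and without sham mouse 2, 1707, against 2845 with all mice, while 2633 to 4309 genes were called higher over the 6 fits that leave out 1 mouse. At or under 3 counts in every sham mouse, which is the floor used here, lay 110 of the tested genes, and at or under it in every ICH mouse lay 29. All 110 were called higher and all 29 lower. Such genes could pass the filter only through the group where they were high. Their calls are thus no separate support for a change. The genes given below as at least so many fold higher or lower are among them.

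The size of the response differed between the ICH mice. The genes called higher held 12.99%, 11.9% and 11.2% of the library (as CPM, counts scaled to a common, normalized library size) in sham mice 1, 2 and 3. In ICH mice 1, 2 and 3 they held 35.7%, 31.8% and 23.5%. The genes called lower held 29.1%, 30.4% and 30.2% of the sham libraries, against 9.91%, 14.0% and 17.5% of the ICH libraries. ICH mouse 1 thus stood farthest from sham and mouse 3 nearest in both directions, with a median log2 difference from the sham mean of 1.68, 1.40 and 1.04 over the genes called higher. For the genes called lower it was -1.44, -1.10 and -0.70. These genes were chosen by the same contrast, and the order of the mice is given as a description.

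**Figure D1:**
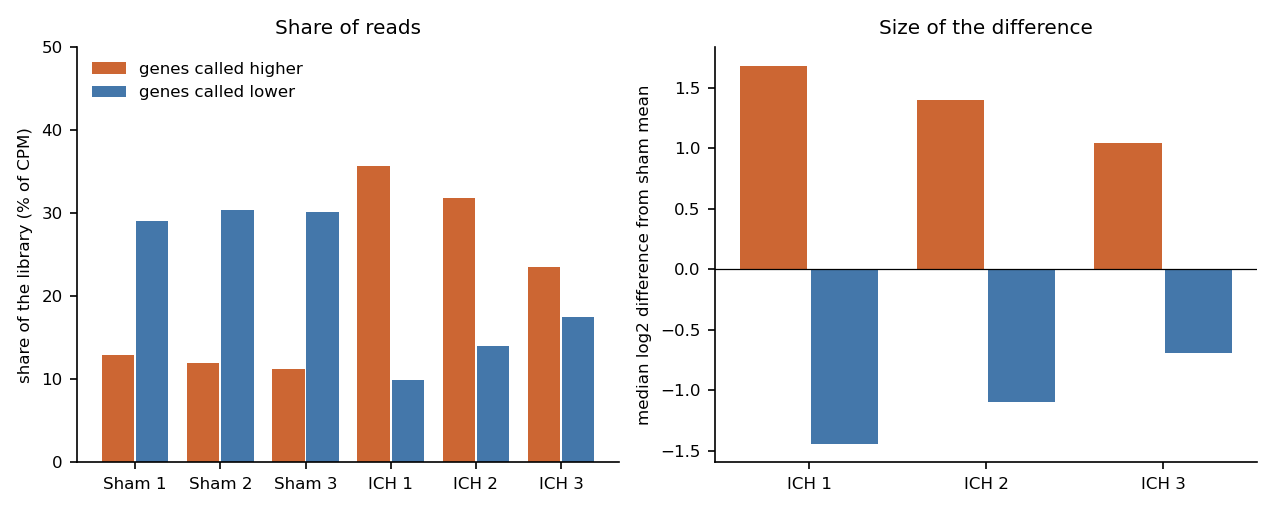
The left panel plots the share of each library (% of CPM) in genes called higher (orange) or lower (blue) after ICH, and the right panel the median log2 difference of the same genes from the mean of the 3 sham mice in each ICH mouse. The share in genes called higher falls from 35.7% in ICH mouse 1 to 23.5% in ICH mouse 3, and all 3 ICH mice stand apart from the sham mice.

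Transcripts typical of striatum and of cortex differed between mice of the same group, and this is given before the neuronal results. The regional make-up of the pieces was not measured. Genes of striatal projection neurons, the main cell type of the striatum, were looked for as a check of the labelled tissue and were detected in every library. None of the 22 striatal genes was called in either direction, and their median log2 fold change was -0.44. Drd1, the D1 dopamine receptor, had 53.1, 65.9 and 196 CPM in the sham mice and 39.4, 58.6 and 117 CPM in the ICH mice. Ppp1r1b, which encodes the dopamine-regulated phosphatase inhibitor DARPP-32, had 478, 543 and 1444 CPM in sham and 359.6, 496 and 1364 CPM in ICH. Sham mouse 3 and ICH mouse 3 were the highest of their groups for both genes, and the groups overlapped. The mean log2 CPM over the 22 genes, set against the sham mean, was -0.54, -0.35 and 0.89 in the sham mice and -1.19, -0.73 and 0.52 in the ICH mice. Slc17a7, the vesicular glutamate transporter of cortical excitatory neurons, ran the other way in the sham group, with 278, 401 and 59.7 CPM, and had 8.498, 7.41 and 35.7 CPM in the ICH group. Without sham mouse 3 and ICH mouse 3, a choice made after seeing the data, 8 of the 22 striatal genes were called lower, at a median of -0.44. Leaving out ICH mouse 3 alone gave 6 called lower at a median of -1.08, leaving out sham mouse 1 gave 1, and leaving out sham mouse 3 gave a median of 0.16, so that the direction of this list was not stable. In that fit of 2 mice against 2, 4211 genes were called higher and 3804 lower over the whole table.

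**Figure D2:**
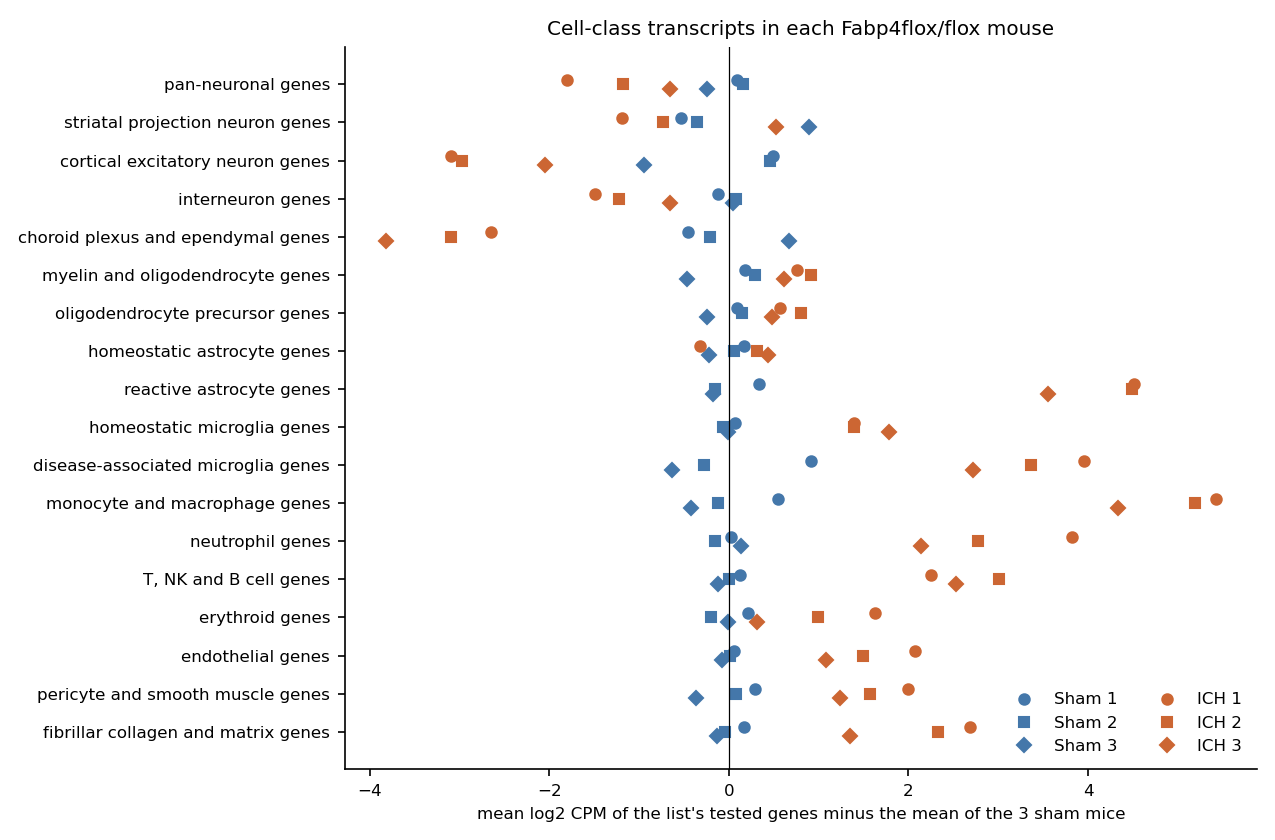
Each point is 1 mouse (blue sham, orange ICH), placed at the mean log2 CPM of the tested genes of a cell-class list minus the mean of the 3 sham mice. The pan-neuronal, cortical, interneuron and choroid plexus lists lie left of the sham mice, myeloid, reactive astrocyte, vascular and matrix lists lie right of them, and the striatal list has its highest values in sham mouse 3 and ICH mouse 3.

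Neuronal transcripts fell broadly. Of 16 genes that most neurons share, 14 were called lower and none higher, with a median log2 fold change of -1.16, and 15 lay below all sham mice, beside 28.4% of all genes. Rbfox3, which encodes the nuclear antigen NeuN, had 132, 125 and 169 CPM in sham and 34.0, 54.3 and 103 CPM in ICH (log2 fold change -1.15 ± 0.38, adjusted p = 0.0413). Nefl, the neurofilament light chain of axons, had 487, 542 and 326 CPM against 84.8, 122 and 238 CPM (log2 fold change -1.61 ± 0.40, adjusted p = 0.0154). In both cases the highest ICH value, that of mouse 3, stayed below the lowest sham value. Tubb3, a neuronal tubulin, was 1 of the 2 without a call, at 409, 369.9 and 301 CPM in sham and 241, 271 and 259.5 CPM in ICH (log2 fold change -0.48 ± 0.17, adjusted p = 0.054), with groups that did not overlap. The summed CPM of the 16 genes was 8143, 8881 and 7132 in sham and 2404, 3567 and 5158 in ICH.

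The machinery of the synapse was lower on both sides. Among 18 genes of vesicle release, 16 were called lower at a median of -1.41. Syt1, the calcium sensor of release, had 1119, 1367 and 1168 CPM in sham and 196, 401 and 629 CPM in ICH (log2 fold change -1.58 ± 0.40, adjusted p = 0.0165). Syn2, a synapsin that holds vesicles in reserve, had 421, 563 and 413 CPM against 67.8, 115 and 149 CPM (log2 fold change -2.07 ± 0.31, adjusted p = 0.00215). All 3 ICH mice were below all sham mice for both, with mouse 1 the lowest. Among 19 receptor genes for glutamate and GABA, 15 were called lower at a median of -1.19. Grin2b, an NMDA receptor subunit, had 265, 305 and 422 CPM in sham and 16.6, 56.1 and 127 CPM in ICH (log2 fold change -2.31 ± 0.64, adjusted p = 0.0234), and Gabrb2, a GABA-A receptor subunit, went from 62.9, 76.7 and 69.4 to 2.11, 9.12 and 22.3 CPM (log2 fold change -2.63 ± 0.67, adjusted p = 0.017). Of 17 voltage-gated channel genes, 10 were called lower, among them Scn2a, a sodium channel of the axon initial segment, at 155, 204 and 241 CPM in sham and 23.7, 43.2 and 90.9 CPM in ICH (log2 fold change -1.93 ± 0.46, adjusted p = 0.0138). Scn4b, a sodium channel subunit enriched in the striatum, gave no call, at 391, 439.8 and 1146 CPM in sham and 172, 294 and 1019.7 CPM in ICH (log2 fold change -0.41 ± 0.70, adjusted p = 0.648).

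How many neuronal genes passed the test changed with the mouse left out, while the size of the difference moved less. Leaving out a mouse also lowers the power of the test. Without ICH mouse 2, 1 of the 16 shared neuronal genes was called lower, and without sham mouse 1 or 2 it was 7 or 2. Over the 6 fits that leave out 1 mouse, the median of these genes stayed between -1.54 and -0.92. Rbfox3 kept its call only without ICH mouse 3. Nefl and Syt1 lost theirs without sham mouse 2 or ICH mouse 2, Grin2b without sham mouse 2, sham mouse 3 or ICH mouse 2, and Gabrb2 and Scn2a without ICH mouse 2. Of the 18 release genes, 6 were called without ICH mouse 2 and 9 without sham mouse 2, and of the 19 receptor genes 2 were called without ICH mouse 2, 5 without sham mouse 2 and 8 without sham mouse 3. Of the 17 channel genes, 4 were called without ICH mouse 2, 5 without sham mouse 2 and 17 without ICH mouse 3. Atp1b1, a beta subunit of the Na+/K+-ATPase, which restores the gradients that firing uses, also fell, from 1953, 2083 and 1538 to 392, 719 and 1124 CPM (log2 fold change -1.32 ± 0.38, adjusted p = 0.0258), and lost its call without sham mouse 1, sham mouse 2 or ICH mouse 2.

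Genes of cortical projection neurons had the lowest median of all lists. Of 14 cortical excitatory genes, 11 were called lower at a median of -2.94. Neurod6, a transcription factor of cortical pyramidal cells, had 21.98, 71.7 and 2.37 CPM in the sham mice and 0.204, 0.367 and 0.434 CPM in the ICH mice (log2 fold change -6.52 ± 1.31, adjusted p = 0.00717). The sham values of Neurod6 spread widely, with mouse 3 the lowest, and no ICH mouse reached it. For Slc17a7, given above, the test gave log2 fold change -3.83 ± 0.88, adjusted p = 0.0117, whereas the same gene was at 1.45 in the Fabp4CKO mice. Without ICH mouse 2, 7 of the 14 cortical genes were called lower. The amount of cortex in each piece was not measured, and its part in these values was not tested. Calb2 (calretinin), a calcium buffer of interneurons and of some projection neurons, fell from 179, 117 and 90.3 CPM to 5.78, 2.14 and 4.83 CPM (log2 fold change -4.92 ± 0.43, adjusted p = 0.000397). Adcyap1, the neuropeptide PACAP, had 7.41, 9.99 and 8.17 CPM in sham and 0.816, 0.857 and 1.14 CPM in ICH (log2 fold change -3.17 ± 0.27, adjusted p = 0.000385), and Tac2, which encodes neurokinin B, had 10.8, 8.98 and 15.0 against 1.36, 1.35 and 1.41 CPM (log2 fold change -3.07 ± 0.27, adjusted p = 0.0004).

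Interneuron genes did not move together. Of 15, 5 were called lower and 1 higher, at a median of -0.61. Npy, neuropeptide Y, was the one that rose, from 25.8, 25.5 and 31.0 to 40.9, 42.3 and 38.5 CPM (log2 fold change 0.56 ± 0.14, adjusted p = 0.014), and it lost its call without ICH mouse 2, sham mouse 1 or sham mouse 2. Sst, somatostatin, was at 121, 134 and 127 CPM in sham and 95.4, 119.9 and 131 CPM in ICH, and Gad1, the main GABA-synthesizing enzyme, at 661, 772 and 786 and 262, 522 and 675 CPM, with overlapping groups for both (log2 fold change -0.14 ± 0.16, adjusted p = 0.483, and -0.61 ± 0.33, adjusted p = 0.169). Cort, cortistatin, which a subset of somatostatin cells makes, fell from 22, 19 and 16 counts in sham to 0, 1 and 0 counts in ICH, at least 5.41-fold lower against the floor of 3 counts per library (adjusted p = 0.00251). Without ICH mouse 2, 3 of the 15 genes were called lower.

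Genes of the choroid plexus, the epithelium that makes cerebrospinal fluid, fell steeply. Of 12 genes of choroid plexus and ependyma, 9 were called lower at a median of -2.64. Ttr, the thyroid hormone carrier transthyretin, had 792, 1511 and 2989.7 CPM in the sham mice and 21.9, 16.7 and 13.3 CPM in the ICH mice (log2 fold change -6.67 ± 0.59, adjusted p = 0.000398). Folr1, a folate receptor of the same epithelium, had 107, 172 and 368 counts in sham and 1, 1 and 0 counts in ICH, at least 62.1-fold lower (adjusted p = 0.000635). The highest ICH value of Ttr was far below the lowest sham value, and sham mouse 3 was the highest for both genes. Genes of the ciliated ependyma differed among themselves. Ccdc153, Rsph1 and Dynlrb2 were called lower, Tmem212 and Tppp3 were not, and Foxj1, the regulator of motile cilia, was at 21.9, 22.4 and 27.4 CPM in sham and 22.2, 29.6 and 18.02 CPM in ICH (log2 fold change -0.04 ± 0.21, adjusted p = 0.892). Without sham mouse 3 or without ICH mouse 2, 5 of the 12 genes were called lower. The choroid plexus lies in the ventricle beside the striatum, and the part that dissection had in these values was not tested.

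Immediate early genes moved in both directions. Of 13, 5 were called lower (Egr1, Egr2, Egr4, Fosb and Nr4a1) and 3 higher (Junb, Ier2 and Fosl1). Egr1 and Egr4, induced by synaptic activity, fell, the first from 151, 142 and 281 to 53.7, 49.1 and 98.0 CPM (log2 fold change -1.51 ± 0.37, adjusted p = 0.0141) and the second from 18.04, 14.6 and 29.7 to 3.33, 3.06 and 10.04 CPM (log2 fold change -1.91 ± 0.50, adjusted p = 0.0192). Fosl1, an AP-1 subunit of wound responses, had 3, 0 and 1 counts in sham and 44, 27 and 34 counts in ICH, at least 13.8-fold higher (adjusted p = 0.00203). Fos was at 24.5, 20.6 and 6.48 CPM in sham and 29.2, 31.0 and 17.8 CPM in ICH, with overlapping groups (log2 fold change 0.59 ± 0.46, adjusted p = 0.316). Without sham mouse 2, 1 of the 13 was called higher, and without ICH mouse 2, 3 were called lower. Egr1 lost its call without ICH mouse 2, and Egr4 without ICH mouse 2 or sham mouse 3. The axon injury list gave 4 higher and 2 lower of 10. Atf3, the transcription factor of damaged neurons and stressed glia, rose from 2.05, 1.17 and 0.896 to 57.2, 43.1 and 22.9 CPM (log2 fold change 4.89 ± 0.45, adjusted p = 0.000425), and Sprr1a, which marks regrowing axons, from 0.0975, 0 and 0.264 to 11.01, 11.2 and 4.29 CPM (log2 fold change 6.10 ± 0.74, adjusted p = 0.001). Sox11, another gene of axon regrowth, had 15.1, 13.3 and 17.97 CPM in sham and 12.6, 26.5 and 9.39 CPM in ICH (log2 fold change 0.06 ± 0.37, adjusted p = 0.9). Of the 10, 1 was called lower without any 1 library other than sham mouse 1.

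Microglial identity genes were higher. Of 12 homeostatic microglia genes, 10 were called higher, at a median of 1.66. Cx3cr1, the fractalkine receptor, had 65.5, 60.5 and 64.9 CPM in the sham mice and 232, 235 and 275 CPM in the ICH mice (log2 fold change 1.96 ± 0.15, adjusted p = 0.000341). Tmem119, the gene whose promoter drives Cre in the knockout line, had 31.8, 24.5 and 26.9 CPM against 90.6, 112 and 91.9 CPM (log2 fold change 1.82 ± 0.16, adjusted p = 0.0004), and P2ry12, the purinergic receptor of resting microglial processes, had 35.3, 39.3 and 35.8 against 58.4, 50.5 and 101 CPM (log2 fold change 0.93 ± 0.26, adjusted p = 0.0241). No ICH mouse overlapped with sham for the 3 genes, and mouse 3, which stood nearest to sham over all genes, was the highest for Cx3cr1 and P2ry12. P2ry12 lost its call without any 1 of the sham mice. This list was the only cell-class list with its highest ICH score in mouse 3 among the lists that were mostly called higher. Slc2a5, the microglial fructose transporter, was at 4.63, 4.69 and 5.96 CPM in sham and 3.74, 5.76 and 11.4 CPM in ICH (log2 fold change 0.46 ± 0.40, adjusted p = 0.375).

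Genes of disease-associated microglia, the lipid- and lysosome-rich state that follows Trem2 signaling, rose further, with 16 of 19 called higher at a median of 2.78. Trem2 itself, a receptor for lipids and debris, had 19.8, 9.76 and 9.54 CPM in sham and 172, 96.4 and 96.6 CPM in ICH (log2 fold change 3.22 ± 0.38, adjusted p = 0.000922). Lgals3, the lysosome-damage lectin galectin-3, had 4.97, 3.18 and 2.95 CPM against 555, 313 and 181 CPM (log2 fold change 6.56 ± 0.51, adjusted p = 0.00035). Spp1, osteopontin, had 65.5, 33.0 and 9.22 CPM against 4754, 1321 and 458 CPM (log2 fold change 5.92 ± 1.12, adjusted p = 0.00567), the widest spread among the ICH mice of these 3 genes. Clec7a, the beta-glucan receptor that usually marks this state, was not called, at 2.14, 0.112 and 0 CPM in sham and 7.07, 7.10 and 1.85 CPM in ICH (log2 fold change 2.78 ± 1.16, adjusted p = 0.0843), and sham mouse 1 had more of it than ICH mouse 3. Sham mouse 1 was the highest sham mouse for all 4 genes and for Gpnmb, at 40.5, 1.84 and 2.85 CPM in sham and 588, 548 and 277 CPM in ICH (log2 fold change 4.96 ± 1.20, adjusted p = 0.0142). Lgals3, Spp1 and Gpnmb are also made by infiltrating macrophages.

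Transcripts of the monocyte and macrophage list rose from low levels. Of 15 monocyte and macrophage genes, 14 were called higher at a median of 5.40, the highest of all lists, and their summed CPM went from 95.4, 52.8 and 43.4 in sham to 2671, 2147 and 1201 in ICH. Itgam, a member of this list, held 32.1, 29.9 and 24.7 CPM of the sham sums. Bulk RNA does not tell blood-borne from resident cells, and the source of these transcripts was not tested. Ccr2, the chemokine receptor that brings monocytes out of the marrow, had 0.682, 0.446 and 0.422 CPM in sham and 23.9, 33.1 and 9.99 CPM in ICH (log2 fold change 5.40 ± 0.53, adjusted p = 0.000518). Arg1, the arginase of repair-type macrophages, had 0.439, 0.502 and 0.422 CPM against 580.4, 161 and 76.0 CPM (log2 fold change 9.21 ± 0.98, adjusted p = 0.000641). Msr1, a scavenger receptor for modified lipoproteins, had 0.292, 0.112 and 0.211 against 182, 87.4 and 33.0 CPM (log2 fold change 8.87 ± 0.85, adjusted p = 0.000468). The lowest ICH value of each exceeded the highest sham value many times over. Cd163, the receptor that takes up hemoglobin bound to haptoglobin, was the exception, at 0.877, 1.12 and 1.63 CPM in sham and 1.63, 0.245 and 1.95 CPM in ICH (log2 fold change 0.08 ± 0.66, adjusted p = 0.926), while Mrc1, another gene of perivascular macrophages, rose from 4.00, 3.18 and 1.37 to 20.3, 10.8 and 7.33 CPM (log2 fold change 2.16 ± 0.50, adjusted p = 0.012).

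Neutrophil genes gave a mixed record. Of 17, 11 passed the filter and 9 were called higher at a median of 3.97 over those tested. Members low in both groups were not tested, and members near 0 in sham passed the filter through their ICH counts. The share and the median are thus not those of the whole list. With at least 10 counts required in every library, 3 were called higher at a median of 2.83. Mmp8, the neutrophil collagenase, had 2, 0 and 2 counts in sham and 397, 369 and 243 counts in ICH, at least 133-fold higher (adjusted p = 0.000305). Cxcr2, the chemokine receptor that guides neutrophils, had 0.0487, 0.223 and 0.158 CPM against 4.83, 1.84 and 1.19 CPM (log2 fold change 4.14 ± 0.76, adjusted p = 0.00518). S100a8, a calprotectin subunit that neutrophils hold in quantity, had 0, 3 and 3 counts in sham and 71, 18 and 28 in ICH, at least 15.8-fold higher (adjusted p = 0.00832), and S100a9, its partner, went from 0.731, 0.39 and 0.949 to 9.38, 2.82 and 1.79 CPM (log2 fold change 2.73 ± 0.70, adjusted p = 0.0176). Ly6g, Mpo and Elane, surface or granule genes of the list, were at or near 0 counts and were not tested. Ly6g had 1, 0 and 0 counts in sham and 0, 0 and 0 in ICH, Mpo had 2, 0 and 4 and 1, 0 and 0, and Elane had 1, 0 and 0 and 6, 0 and 0. Lcn2, which reactive astrocytes also make, rose from 3.02, 1.28 and 7.85 to 371, 567 and 208 CPM (log2 fold change 6.55 ± 0.75, adjusted p = 0.000801). S100a9 lost its call without sham mouse 1 or sham mouse 2.

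Lymphocyte and red cell transcripts were few. Of 16 genes of T, NK and B cells, 9 were tested and 7 called higher. The filter left out genes low in both groups, and genes near 0 in sham passed it through their ICH counts. This share is therefore no separate support for a rise of the list. With at least 10 counts required in every library, 0 were called higher, and the median log2 fold change was -0.12 against 4.23. Cd3e, part of the T cell receptor complex, had 0.0487, 0.279 and 0.0527 CPM in sham and 1.56, 1.84 and 1.52 CPM in ICH (log2 fold change 3.66 ± 0.62, adjusted p = 0.00375), and Gzma, a granzyme of NK and cytotoxic cells, had 1, 0 and 0 counts against 26, 56 and 27, at least 14.1-fold higher (adjusted p = 0.00121). The B cell gene Ms4a1 was not tested, with 5, 0 and 3 counts in the ICH mice. Hemoglobin RNA, from reticulocytes in blood, was higher. Hbb-bs, a beta-globin gene, had 83.0, 62.0 and 61.0 CPM in sham and 282, 167 and 86.6 CPM in ICH (log2 fold change 1.38 ± 0.40, adjusted p = 0.0265), and Hba-a1 had 28.2, 25.8 and 29.5 against 138, 81.5 and 37.0 CPM (log2 fold change 1.62 ± 0.42, adjusted p = 0.0182). Globin genes have near-identical copies, among which the counting may split reads. Of the 6 erythroid genes tested, 3 were called higher, and 0 without sham mouse 2, sham mouse 3 or ICH mouse 2, and 1 without sham mouse 1 or ICH mouse 1. Hbb-bs kept its call only without ICH mouse 3, and Hba-a1 lost it without ICH mouse 2 or any 1 of the sham mice.

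Signals that recruit and activate leukocytes rose with them. Of 17 chemokine genes tested, 13 were called higher at a median of 4.30. Ccl2, the main monocyte attractant, had 0.439, 0.167 and 0.211 CPM in sham and 40.9, 59.1 and 25.6 CPM in ICH (log2 fold change 7.20 ± 0.47, adjusted p = 0.000287). Cxcl10, which interferon induces, had 0.487, 0.558 and 0.422 CPM against 32.0, 67.9 and 66.2 CPM (log2 fold change 6.81 ± 0.40, adjusted p = 0.000279), and Cxcl1, a neutrophil attractant, 0.146, 0.112 and 0.211 against 10.5, 9.31 and 3.37 CPM (log2 fold change 5.56 ± 0.60, adjusted p = 0.000661). Cx3cl1, the neuronal ligand of the microglial receptor named above, was not called, at 517, 511 and 912 CPM in sham and 147, 205 and 539 CPM in ICH (log2 fold change -1.12 ± 0.50, adjusted p = 0.102). Of 20 interleukin and TNF family genes tested, 19 were called higher at a median of 3.16. Il1b had 0.146, 0 and 0.527 CPM in sham and 9.59, 6.98 and 2.33 CPM in ICH (log2 fold change 4.75 ± 0.90, adjusted p = 0.00567), its receptor antagonist Il1rn 0.195, 0.112 and 0.58 against 11.4, 7.90 and 4.99 CPM (log2 fold change 4.74 ± 0.59, adjusted p = 0.00106), and Tnf 0.146, 0 and 0.264 against 4.42, 3.61 and 1.19 CPM (log2 fold change 4.40 ± 0.84, adjusted p = 0.00585). ICH mouse 3 was the lowest of its group for the 3 genes and still above every sham mouse. Il6 did not pass the filter, with 4, 4 and 0 counts in sham and 30, 13 and 6 in ICH, and Il18 was at 15.6, 14.3 and 15.0 CPM and 20.6, 14.1 and 17.3 CPM, with overlapping groups.

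Receptors for microbial and damage signals and the opsonin systems rose almost without exception. Of 18 genes of Toll-like receptors and inflammasomes, 17 were called higher (median 3.15), of 15 complement genes all 15 (median 3.34), and of 10 Fc receptor and ITAM genes all 10 (median 3.63). Tlr2 had 4.63, 2.57 and 2.42 CPM in sham and 54.1, 58.4 and 31.5 CPM in ICH (log2 fold change 3.90 ± 0.35, adjusted p = 0.000408), and Nlrp3, the inflammasome sensor, 1.02, 1.06 and 1.53 against 7.07, 7.72 and 5.59 CPM (log2 fold change 2.49 ± 0.29, adjusted p = 0.000871). C1qa, which starts the classical complement pathway and is made by microglia, had 88.5, 49.1 and 51.7 CPM against 865, 475 and 463 CPM (log2 fold change 3.25 ± 0.36, adjusted p = 0.00075). C3, the component on which the pathways converge, had 10.8, 3.24 and 6.22 CPM against 46.8, 242 and 79.7 CPM (log2 fold change 4.18 ± 0.72, adjusted p = 0.00402), and was highest in ICH mouse 2, not in mouse 1. Itgam (CD11b), the complement receptor of myeloid cells, had 32.1, 29.9 and 24.7 CPM in sham and 287, 281 and 265 CPM in ICH (log2 fold change 3.26 ± 0.17, adjusted p = 0.000262), and the ICH mice were nearly equal.

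Interferon-stimulated genes and genes of antigen presentation were higher in every tested member. All 21 interferon-stimulated genes were called higher at a median of 3.16. Ifit1, which binds foreign RNA, had 7.17, 4.57 and 2.16 CPM in sham and 29.2, 49.3 and 28.6 CPM in ICH (log2 fold change 2.94 ± 0.44, adjusted p = 0.00217), and Isg15, a ubiquitin-like modifier, 3.27, 1.51 and 1.32 against 30.7, 37.4 and 24.4 CPM (log2 fold change 3.91 ± 0.37, adjusted p = 0.000471). ICH mouse 2 was the highest for both, unlike the order of mice over all genes. Because these genes moved together, the 150 bases before their start sites are shown from RefSeq (build GRCm38.p6), written 5′ to 3′ along the gene. The capitals mark the core of the interferon-stimulated response element (GAAA and GAAA with a pair of free bases between them), on either strand and with overlapping matches joined.
Ifit1 (chr19:34640739-34640888, plus strand): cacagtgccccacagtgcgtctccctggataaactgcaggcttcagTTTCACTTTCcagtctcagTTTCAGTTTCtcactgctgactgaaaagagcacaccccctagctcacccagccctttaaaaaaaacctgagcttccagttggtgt
Isg15 (chr4:156200819-156200968, minus strand): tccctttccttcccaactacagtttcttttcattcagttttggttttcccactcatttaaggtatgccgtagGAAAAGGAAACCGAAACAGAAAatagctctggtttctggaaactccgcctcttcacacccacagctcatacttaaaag
Within 250 bases before the start site, 10 of the 16 interferon-stimulated genes with an entry (62.5%) held this motif, and 3.31% of the 11423 tested genes with an entry did. A match of letters is a description of the sequence and not a binding site. All 15 genes of MHC presentation were called higher at a median of 3.36. B2m, the invariant class I chain, had 217, 134 and 72.9 CPM in sham and 1111, 1152 and 619 CPM in ICH (log2 fold change 2.76 ± 0.44, adjusted p = 0.00295), and Cd74, the class II chaperone, 26.9, 5.30 and 4.43 against 206, 211 and 124 CPM (log2 fold change 3.88 ± 0.72, adjusted p = 0.00537). The class I and class II chains other than B2m have close paralogs, among which the counting may split reads.

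Genes of heme breakdown and iron storage rose. Of 22 genes, 16 were called higher and none lower, at a median of 2.06. Hmox1, heme oxygenase-1, which splits heme into biliverdin, carbon monoxide and iron, had 10.9, 6.53 and 8.33 CPM in the sham mice and 3816, 1258 and 666 CPM in the ICH mice (log2 fold change 7.80 ± 0.79, adjusted p = 0.000558). The ferritin chains that store the iron rose as well, Ftl1 from 259, 185 and 214 to 6432, 3099 and 2023 CPM (log2 fold change 4.13 ± 0.47, adjusted p = 0.000811) and Fth1 from 2907, 2671 and 2040.1 to 13745, 10280.4 and 6291 CPM (log2 fold change 1.99 ± 0.35, adjusted p = 0.00442). For these 3 genes the order of the ICH mice was 1, 2 and 3, with mouse 1 at several times the level of mouse 3 in Hmox1. Slc40a1 (ferroportin), the iron exporter, rose from 10.6, 10.2 and 7.54 to 63.4, 61.4 and 44.7 CPM (log2 fold change 2.58 ± 0.21, adjusted p = 0.00035), and Hp (haptoglobin), which binds free hemoglobin, from 1.27, 0.781 and 2.21 to 11.2, 5.08 and 2.61 CPM (log2 fold change 2.14 ± 0.61, adjusted p = 0.0254). Hp lost its call without sham mouse 1, sham mouse 2, ICH mouse 1 or ICH mouse 2. Tfrc, the transferrin receptor for iron uptake, was at 73.8, 82.7 and 60.3 CPM in sham and 50.2, 50.5 and 77.9 CPM in ICH, with overlapping groups (log2 fold change -0.28 ± 0.22, adjusted p = 0.319). The summed CPM of the 22 genes was 4091, 3795 and 3303 in sham and 25957, 16821 and 10458 in ICH.

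Antioxidant genes responded unevenly. Of 22 NRF2 and antioxidant genes, 14 were called higher and 1 lower, at a median of 0.73. The metallothioneins, which bind zinc and copper, had the largest rises of the list, Mt2 from 105, 64.2 and 74.7 to 1030.0, 655 and 421 CPM (log2 fold change 3.11 ± 0.37, adjusted p = 0.000964) and Mt1 from 187, 123 and 141 to 1547, 995 and 588 CPM (log2 fold change 2.79 ± 0.38, adjusted p = 0.00152). Of the standard NRF2 targets, Gclm, which supports glutathione synthesis, rose from 59.1, 67.6 and 63.2 to 137, 112 and 93.3 CPM (log2 fold change 0.85 ± 0.17, adjusted p = 0.00742), while Nqo1, a quinone reductase, was at 6.97, 5.91 and 7.22 CPM in sham and 6.05, 5.45 and 5.75 CPM in ICH (log2 fold change -0.22 ± 0.20, adjusted p = 0.38) and Srxn1, sulfiredoxin, at 121, 119 and 103 and 152, 135 and 120.0 CPM (log2 fold change 0.25 ± 0.15, adjusted p = 0.219). Hmox1, which is also an NRF2 target, is given above. Sod2, the mitochondrial superoxide dismutase, was the member that fell, from 222, 234 and 236 to 127, 142 and 187 CPM (log2 fold change -0.60 ± 0.18, adjusted p = 0.0322), and its call was kept in 1 of the 6 fits that leave out a mouse, that without ICH mouse 3. The antioxidant response element TGANNNNGC stood within 250 bases before 10 of 18 NRF2 genes with an entry (55.6%) and before 41.3% of all tested genes with one.

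Heat shock genes moved in both directions. Of 15, 6 were called higher and 3 lower, beside 26.2% and 19.3% of all tested genes. The 4 small heat shock protein genes of the list, Hspb1, Hspb6, Hspb8 and Cryab, all rose. Hspb6 had 7.21, 6.47 and 7.06 CPM in sham and 59.3, 51.6 and 56.5 CPM in ICH (log2 fold change 3.01 ± 0.14, adjusted p = 0.000262), with nearly equal mice in each group, and Hspb1 10.1, 6.47 and 13.5 against 95.5, 45.4 and 19.5 CPM (log2 fold change 2.41 ± 0.56, adjusted p = 0.0127). Hspa1a, the inducible HSP70, rose from 7.56, 7.14 and 15.5 to 30.2, 45.9 and 12.6 CPM (log2 fold change 1.55 ± 0.50, adjusted p = 0.038) although ICH mouse 3 lay within the sham range. It lost its call without sham mouse 1, sham mouse 2, ICH mouse 1 or ICH mouse 2, and its near-identical copy Hspa1b, which gave no call, can share its reads. Chaperones of the HSP110 and HSP70 families that cells hold without stress fell, Hsph1 from 306, 331 and 493 to 98.8, 120.1 and 173 CPM (log2 fold change -1.53 ± 0.28, adjusted p = 0.00504) and Hspa8 from 2636, 2702 and 3038 to 1819, 1680.4 and 1803 CPM (log2 fold change -0.66 ± 0.19, adjusted p = 0.028). Without sham mouse 2 or ICH mouse 2, 1 of the 15 was called lower. Hspa8 lost its call without ICH mouse 2 or any 1 of the sham mice, and Hspb1 without sham mouse 2. The 150 bases before the start sites of Hspb1 and Hspa1a are shown, again from RefSeq, because their share of the motif can be set beside that of all promoters. The capitals mark GAANNTTC, a pair of inverted heat shock units, which reads the same on both strands.
Hspb1 (chr5:135887769-135887918, plus strand): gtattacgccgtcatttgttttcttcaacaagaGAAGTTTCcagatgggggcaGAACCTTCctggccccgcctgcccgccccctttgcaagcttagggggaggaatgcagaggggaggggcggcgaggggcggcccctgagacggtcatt
Hspa1a (chr17:34972157-34972306, minus strand): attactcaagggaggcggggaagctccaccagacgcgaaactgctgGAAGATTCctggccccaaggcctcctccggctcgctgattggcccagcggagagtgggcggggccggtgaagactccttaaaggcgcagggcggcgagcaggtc
The motif was found within 250 bases before 7 of 11 heat shock genes with an entry (63.6%), among them Dnaja1, which fell, and before 6.08% of all tested genes with one. In the integrated stress and unfolded protein lists, 9 of 19 genes were called higher and 3 lower. Ddit3 (CHOP), a transcription factor of prolonged stress, rose from 21.0, 16.3 and 17.3 to 29.3, 30.5 and 26.4 CPM (log2 fold change 0.66 ± 0.15, adjusted p = 0.0124), while Asns, asparagine synthetase, fell from 108, 113 and 112 to 32.1, 41.6 and 66.4 CPM (log2 fold change -1.25 ± 0.26, adjusted p = 0.00819). Without sham mouse 2 or ICH mouse 2, 5 of the 19 were called higher, Ddit3 not among them, and without any 1 of sham mouse 1, sham mouse 2, ICH mouse 1 and ICH mouse 2, 1 was called lower.

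**Figure D3:**
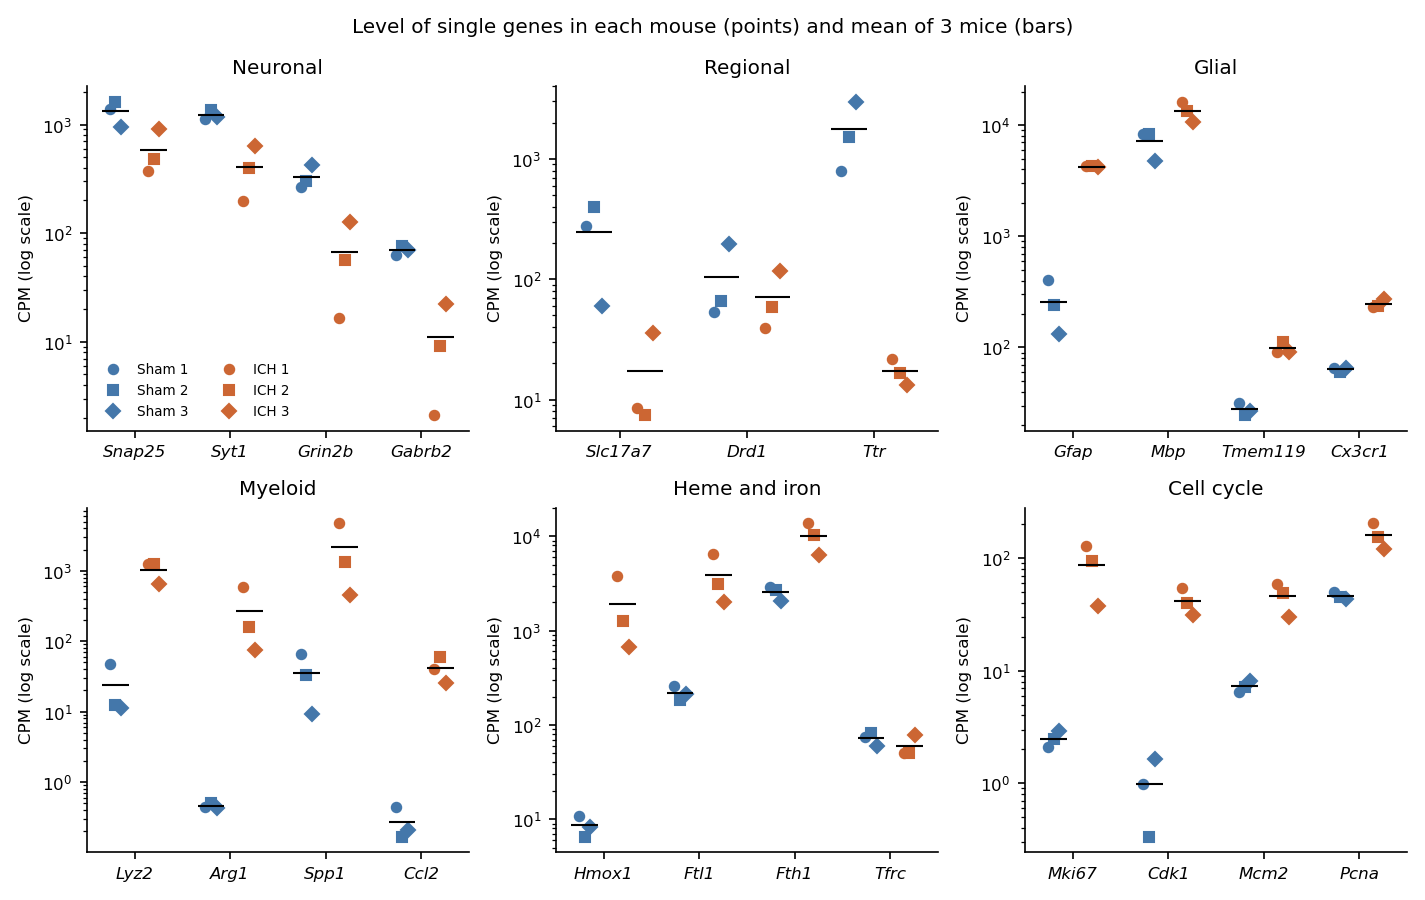
Each point is the level of a gene in 1 mouse (blue sham, orange ICH; CPM on a log scale) and each bar the mean of 3 mice. Every ICH mouse lies above every sham mouse for the 4 myeloid and 4 cell cycle genes and for Hmox1, Ftl1 and Fth1, and below for the 4 neuronal genes and Ttr, while Drd1 and Tfrc overlap between groups.

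Astrocyte genes differed between the resting and the reactive lists. Of 14 homeostatic astrocyte genes, 3 were called higher and 1 lower, at a median of 0.03, beside 26.2% and 19.3% of all tested genes. The count called lower was 0 without sham mouse 1, sham mouse 2, ICH mouse 1 or ICH mouse 2, and 3 without ICH mouse 3. Slc1a2, the main glutamate transporter, was at 1554, 1728 and 1689.6 CPM in sham and 461, 909 and 1701 CPM in ICH, with ICH mice 1 and 2 below sham and mouse 3 within the sham range (log2 fold change -0.69 ± 0.43, adjusted p = 0.217), and Glul, glutamine synthetase, at 1677, 1516 and 1455 and 1254, 1458 and 1602 CPM (log2 fold change -0.11 ± 0.19, adjusted p = 0.669). Aqp4, the water channel of the endfeet, rose from 192, 179 and 89.0 to 345, 802 and 509 CPM (log2 fold change 1.85 ± 0.40, adjusted p = 0.00928), and Aldh1l1 from 64.7, 62.4 and 56.4 to 154, 189 and 184 CPM (log2 fold change 1.52 ± 0.15, adjusted p = 0.00052). Against this, all 21 tested genes of reactive astrocytes were called higher at a median of 4.04. Gfap, the intermediate filament of reactive astrocytes, had 403, 242 and 131 CPM in sham and 4271, 4279 and 4182 CPM in ICH (log2 fold change 4.04 ± 0.43, adjusted p = 0.000665), the ICH mice being nearly equal and the sham mice spread. Vim, vimentin, had 66.4, 41.8 and 40.9 CPM against 2733, 2048 and 1152 CPM (log2 fold change 5.31 ± 0.42, adjusted p = 0.00035), Serpina3n, a secreted protease inhibitor, 60.9, 27.2 and 20.5 against 1873, 1964 and 1190.2 CPM (log2 fold change 5.53 ± 0.51, adjusted p = 0.000421), and Timp1, an inhibitor of matrix proteases, 0.731, 0.223 and 0.791 against 192, 202 and 78.8 CPM (log2 fold change 8.05 ± 0.57, adjusted p = 0.000305). Vim, Timp1 and Cd44 are made by other reactive and infiltrating cells too.

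Oligodendrocyte genes were called higher in part. Of 14 genes of myelin and oligodendrocytes, 5 were called higher and none lower, at a median of 0.68. Mbp, a main myelin protein, had 8414, 8366 and 4722 CPM in the sham mice and 16272, 13338 and 10631 CPM in the ICH mice (log2 fold change 0.90 ± 0.34, adjusted p = 0.061), and its groups did not overlap although the test gave no call. Sham mouse 3, the mouse rich in striatal transcripts, was the lowest. Trf, transferrin, which oligodendrocytes make, had the largest rise, from 862, 878 and 577 to 4634, 4965 and 2853 CPM (log2 fold change 2.43 ± 0.31, adjusted p = 0.00122). Of 12 genes of oligodendrocyte precursors and newly formed oligodendrocytes, 5 were called higher at a median of 0.59, with Bcas1, of newly formed cells, at 456, 438 and 231 CPM in sham and 1170.4, 973 and 594 CPM in ICH (log2 fold change 1.28 ± 0.35, adjusted p = 0.0213) and Pdgfra, the defining receptor of precursors, at 73.2, 80.6 and 68.2 and 91.6, 115 and 89.2 CPM (log2 fold change 0.41 ± 0.15, adjusted p = 0.0607). These counts changed when 1 mouse was left out, and such fits also have less power to call a gene. Over the 6 fits, the median stayed between 0.41 and 0.82 for the myelin genes. For the precursor genes it stayed between 0.41 and 0.62. Of the 14 myelin genes, 2 were called without sham mouse 1, sham mouse 3 or ICH mouse 2, and 3 without sham mouse 2 or ICH mouse 1. Of the 12 precursor genes, 1 was called without ICH mouse 2, 2 without sham mouse 2 or 3, and 3 without sham mouse 1. Bcas1 lost its call without sham mouse 2, sham mouse 3, ICH mouse 1 or ICH mouse 2. In the Fabp4CKO mice the median of the myelin genes was -0.24.

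Genes of the vessel wall were higher. All 17 endothelial genes were called higher at a median of 1.63. Cldn5, the tight junction protein of the blood-brain barrier, had 26.4, 22.4 and 25.8 CPM in sham and 199, 117 and 90.3 CPM in ICH (log2 fold change 2.44 ± 0.30, adjusted p = 0.00101). Pecam1 had 35.5, 37.3 and 31.1 CPM against 260.2, 181 and 102 CPM (log2 fold change 2.39 ± 0.33, adjusted p = 0.00165), and Flt1, a VEGF receptor and the least changed of the list, 95.01, 94.9 and 91.8 against 186, 131 and 121 CPM (log2 fold change 0.64 ± 0.19, adjusted p = 0.029). Flt1 lost its call without ICH mouse 2 or any 1 of the sham mice. The median of these 17 genes was 0.40 in the Fabp4CKO mice. Of 8 adhesion molecules that catch leukocytes, 7 were called higher at a median of 2.21. Selp (P-selectin), which slows rolling leukocytes, had 0.146, 0.167 and 0.316 CPM in sham and 86.3, 27.0 and 9.23 CPM in ICH (log2 fold change 7.56 ± 1.05, adjusted p = 0.00165), and Icam1, which arrests them, 3.90, 2.40 and 4.48 against 60.0, 50.5 and 35.4 CPM (log2 fold change 3.75 ± 0.30, adjusted p = 0.00035). Vcam1 was already present in sham, at 45.9, 41.6 and 41.7 CPM, and had 128, 203 and 111 CPM in ICH (log2 fold change 1.77 ± 0.24, adjusted p = 0.00149). Of 12 pericyte and smooth muscle genes, 10 were called higher at a median of 1.23, with Tagln, an actin-binding protein of contractile cells, from 9.51, 9.43 and 8.43 to 284, 328 and 91.4 CPM (log2 fold change 4.68 ± 0.49, adjusted p = 0.000615) and Pdgfrb from 33.6, 26.0 and 30.9 to 76.7, 58.3 and 50.1 CPM (log2 fold change 1.03 ± 0.19, adjusted p = 0.00554).

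Matrix genes and the proteases that cut matrix rose side by side. Of 24 collagen and matrix genes, 19 were called higher at a median of 2.48. Col4a1, a collagen of the vascular basement membrane, had 39.0, 37.5 and 40.9 CPM in sham and 720.4, 485 and 304 CPM in ICH (log2 fold change 3.68 ± 0.33, adjusted p = 0.000408), Fn1, fibronectin, 70.2, 53.1 and 63.6 against 1431, 918 and 434 CPM (log2 fold change 3.90 ± 0.44, adjusted p = 0.000798), and Thbs1, thrombospondin-1, 4.53, 4.35 and 3.53 against 268, 140.1 and 42.7 CPM (log2 fold change 5.18 ± 0.67, adjusted p = 0.00124). In each, ICH mouse 3 was the lowest of its group and still above sham. Col1a1, a fibrillar collagen, rose from 8.77, 5.58 and 5.11 to 74.5, 40.7 and 15.8 CPM (log2 fold change 2.74 ± 0.54, adjusted p = 0.00678). Of 19 protease and inhibitor genes, 16 were called higher and 1 lower, at a median of 3.25. Mmp12, the macrophage elastase, had 0.585, 0.0558 and 0 CPM in sham and 101, 18.9 and 16.6 CPM in ICH (log2 fold change 7.62 ± 1.18, adjusted p = 0.00251), and Mmp3 0.292, 0 and 0.0527 against 9.11, 7.41 and 3.64 CPM (log2 fold change 5.72 ± 0.77, adjusted p = 0.00151). Timp2 was the member that fell, from 468, 498 and 560.2 to 289.7, 361 and 325 CPM (log2 fold change -0.65 ± 0.17, adjusted p = 0.0193), and it lost its call without sham mouse 2.

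Cell cycle genes rose. Of 25 mitosis genes, 24 were called higher at a median of 4.56, and all 24 DNA replication genes were called higher at a median of 2.39. Mki67, the antigen of cycling cells, had 2.10, 2.45 and 2.90 CPM in sham and 128, 94.8 and 37.9 CPM in ICH (log2 fold change 5.13 ± 0.48, adjusted p = 0.00046). Cdk1, the kinase that starts mitosis, had 0.975, 0.335 and 1.63 CPM against 54.7, 39.7 and 31.3 CPM (log2 fold change 5.40 ± 0.47, adjusted p = 0.000397), Top2a, which untangles chromosomes, 2.78, 2.01 and 4.53 against 99.8, 104 and 59.5 CPM (log2 fold change 4.81 ± 0.37, adjusted p = 0.000345), and Ccnb1, cyclin B1, 0.536, 0.669 and 1.42 against 36.5, 34.2 and 26.4 CPM (log2 fold change 5.20 ± 0.36, adjusted p = 0.000305). Every ICH value of the 4 genes was above every sham value, and mouse 3 was the lowest of the ICH mice. Mcm2, a subunit of the replicative helicase, rose from 6.43, 7.20 and 8.12 to 58.9, 48.9 and 29.9 CPM (log2 fold change 2.66 ± 0.27, adjusted p = 0.000543), and Pcna, the sliding clamp, from 49.6, 45.4 and 43.6 to 204, 155 and 119.8 CPM (log2 fold change 1.79 ± 0.21, adjusted p = 0.000937). Anln was the mitosis gene without a call, at 73.9, 91.7 and 51.9 CPM in sham and 116, 153 and 86.1 CPM in ICH (log2 fold change 0.71 ± 0.28, adjusted p = 0.0693), and oligodendrocytes express it outside division. Which cells divide cannot be read from bulk RNA.

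Because the mitosis genes share promoter elements, the 150 bases before the start sites of 4 of them are shown from RefSeq (build GRCm38.p6), 5′ to 3′ along the gene. The capitals mark CCAAT, the NF-Y box, and TTTGAA, the cell cycle genes homology region (CHR), on either strand, so that ATTGG and TTCAAA are the same motifs read on the other strand.
Cdk1 (chr10:69352913-69353062, minus strand): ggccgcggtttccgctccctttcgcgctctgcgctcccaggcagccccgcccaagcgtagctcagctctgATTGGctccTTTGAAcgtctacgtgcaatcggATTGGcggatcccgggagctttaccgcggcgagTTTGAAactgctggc
Top2a (chr11:99024190-99024339, minus strand): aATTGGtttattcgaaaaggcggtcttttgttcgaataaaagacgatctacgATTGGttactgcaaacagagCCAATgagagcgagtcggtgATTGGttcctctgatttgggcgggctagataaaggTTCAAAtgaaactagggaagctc
Mki67 (chr7:135716380-135716529, minus strand): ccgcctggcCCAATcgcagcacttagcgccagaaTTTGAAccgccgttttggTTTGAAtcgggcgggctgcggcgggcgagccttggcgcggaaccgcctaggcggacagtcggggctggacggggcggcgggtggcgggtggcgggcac
Ccnb1 (chr13:100786487-100786636, minus strand): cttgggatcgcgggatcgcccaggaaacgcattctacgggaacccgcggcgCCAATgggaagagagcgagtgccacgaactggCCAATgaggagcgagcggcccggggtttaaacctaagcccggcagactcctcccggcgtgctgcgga
Cdk1, Top2a and Mki67 each showed both motifs in this stretch and Ccnb1 showed CCAAT. Within 250 bases, CCAAT stood before 18 of 21 mitosis genes with an entry (85.7%) and TTTGAA before 10 of 21 (47.6%), and all 10 held both. Of all 11423 tested genes with an entry, 40.2% held CCAAT, 12.9% TTTGAA and 4.82% both. The replication genes had CCAAT before 14 of 20 (70.0%) and TTTGAA before 3 of 20 (15.0%), with both motifs before 2.

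Lipid handling and lysosomes formed a further block. Of 23 genes of lipid uptake, export and droplets, 16 were called higher and 2 lower, at a median of 1.62. Plin2, the coat protein of lipid droplets, had 9.99, 9.26 and 7.85 CPM in sham and 479, 199 and 119.6 CPM in ICH (log2 fold change 4.88 ± 0.54, adjusted p = 0.000735), and Cd36, a fatty acid transporter, 2.73, 3.79 and 1.84 against 72.9, 59.0 and 30.2 CPM (log2 fold change 4.27 ± 0.41, adjusted p = 0.000479). Abca1, which exports cholesterol, rose from 66.6, 54.7 and 50.6 to 262, 231 and 183 CPM (log2 fold change 1.98 ± 0.20, adjusted p = 0.000522), and Apoe, the main lipid carrier of the brain, from 2036, 1402 and 1272 to 3909.8, 2785 and 2513 CPM (log2 fold change 0.97 ± 0.28, adjusted p = 0.028). Apoe lost its call without sham mouse 2, sham mouse 3, ICH mouse 1 or ICH mouse 2. Fabp4, the gene floxed in these mice, had 2, 1 and 2 counts in the sham mice and 46, 63 and 24 counts in the ICH mice, which was at least 17.6-fold higher against the floor of 3 counts per library (adjusted p = 0.00125). ICH mouse 2 was the highest of the 3 for Fabp4, unlike for Plin2 and Cd36. Plin5 and Fabp3 were the members that fell, Plin5 from 1.02, 0.948 and 1.42 to 0.34, 0.184 and 0.163 CPM (log2 fold change -2.30 ± 0.49, adjusted p = 0.00888), and 1 of the 23 was called lower without any 1 of sham mouse 1, sham mouse 2, ICH mouse 1 and ICH mouse 2. All 20 lysosome and phagocytosis genes tested were called higher at a median of 2.48. Cd68, a lysosomal membrane protein of phagocytes, had 21.3, 9.09 and 11.9 CPM in sham and 547, 355 and 225 CPM in ICH (log2 fold change 4.74 ± 0.47, adjusted p = 0.00052), and Ctsd, cathepsin D, 656, 491 and 531 against 6474, 4696 and 3491 CPM (log2 fold change 3.13 ± 0.31, adjusted p = 0.000518), while Lamp1, present in every cell, rose from 569.7, 543 and 441 to 1034, 994 and 842 CPM (log2 fold change 0.89 ± 0.19, adjusted p = 0.00925). Of 18 cholesterol synthesis genes, 4 were called lower and 1 higher, beside 19.3% and 26.2% of all tested genes. In the same 4 fits 1 of the 18 was called lower, and 0 were called higher in them and without sham mouse 3.

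Energy and protein synthesis genes differed by pathway. Of 20 glycolysis and hypoxia genes, 9 were called higher and 1 lower, at a median of 0.33. Those that rose included Hk2, an inducible hexokinase, from 5.46, 4.91 and 4.22 to 58.5, 42.1 and 32.3 CPM (log2 fold change 3.18 ± 0.26, adjusted p = 0.00035), Slc16a3, a lactate exporter, from 3.22, 2.85 and 3.27 to 95.7, 44.0 and 26.2 CPM (log2 fold change 4.15 ± 0.49, adjusted p = 0.000913), and Ldha from 200.1, 227 and 300.3 to 877, 512 and 419 CPM (log2 fold change 1.31 ± 0.31, adjusted p = 0.0135). Vegfa, a classical hypoxia gene, was at 52.99, 57.0 and 39.4 CPM in sham and 50.6, 41.3 and 52.3 CPM in ICH (log2 fold change -0.05 ± 0.18, adjusted p = 0.837). Without sham mouse 1, 5 of the 20 were called higher, and Ldha lost its call without sham mouse 1 or sham mouse 2. Nuclear respiratory chain genes gave 3 lower of 19, beside 19.3% of all tested genes, at a median of -0.22. Sdha went from 427, 431 and 405 to 236, 274 and 326 CPM (log2 fold change -0.59 ± 0.17, adjusted p = 0.0283). None of the 19 was called without sham mouse 1, sham mouse 2 or ICH mouse 2, 1 without ICH mouse 1, and 6 without ICH mouse 3. The 13 mitochondrially encoded genes had no call, at a median of 0.47, and ICH mouse 1 was their highest mouse. With all 12 libraries in one fit 6 of the 13 were called higher, and without ICH mouse 3 it was 2. Of 24 cytosolic ribosomal protein genes, 22 were called higher at a median of 1.01, with Rplp0 from 256, 206 and 212 to 1059.6, 750.0 and 582 CPM (log2 fold change 1.83 ± 0.26, adjusted p = 0.00175). Of these 24, 11 were called without sham mouse 2 and 14 without sham mouse 3, at medians of 0.92 and 0.96. Many ribosomal protein genes have processed pseudogenes that can share their reads.

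Genes of cell death and growth factors were raised in part. Of 18 cell death and p53 target genes, 14 were called higher at a median of 1.46. Cdkn1a (p21), which halts the cell cycle, had 12.4, 12.3 and 11.5 CPM in sham and 123, 88.2 and 45.3 CPM in ICH (log2 fold change 2.82 ± 0.35, adjusted p = 0.00104). Ripk3 and Mlkl, the kinase and the pore-former of necroptosis, rose, Ripk3 from 2, 3 and 1 to 147, 123 and 89 counts, at least 47.4-fold (adjusted p = 0.000352), and Mlkl from 0.585, 0.335 and 0.211 to 8.63, 8.57 and 5.32 CPM (log2 fold change 4.28 ± 0.43, adjusted p = 0.000531). Of 22 growth factor genes, 12 were called higher and 2 lower. Tgfb1 had 8.38, 6.02 and 6.27 CPM in sham and 98.3, 69.0 and 45.9 CPM in ICH (log2 fold change 3.36 ± 0.31, adjusted p = 0.000421), and Lif, a cytokine that activates glia, 0.585, 0.558 and 0.632 against 8.36, 6.37 and 3.37 CPM (log2 fold change 3.33 ± 0.42, adjusted p = 0.00111). Bdnf was at 13.3, 11.1 and 1.63 CPM in sham and 1.56, 10.5 and 2.17 CPM in ICH, with wide spread in both groups (log2 fold change -0.87 ± 0.89, adjusted p = 0.445), and its receptor gene Ntrk2 fell from 727, 769.8 and 909 to 277, 502 and 556 CPM (log2 fold change -0.85 ± 0.28, adjusted p = 0.0418). Of the 22, 1 was called lower without any 1 of the sham mice and 0 without ICH mouse 2. Ntrk2 lost its call without ICH mouse 2 or any 1 of the sham mice. Of 11 circadian clock genes, 4 were called lower and none higher, with Cry2 from 112, 107 and 125 to 37.1, 45.6 and 71.9 CPM (log2 fold change -1.15 ± 0.25, adjusted p = 0.00934), and 2 were called lower without sham mouse 2 and 1 without ICH mouse 2. The hour at which tissue was taken is not given in the sources used here, and its part in these values was not tested.

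**Figure D4:**
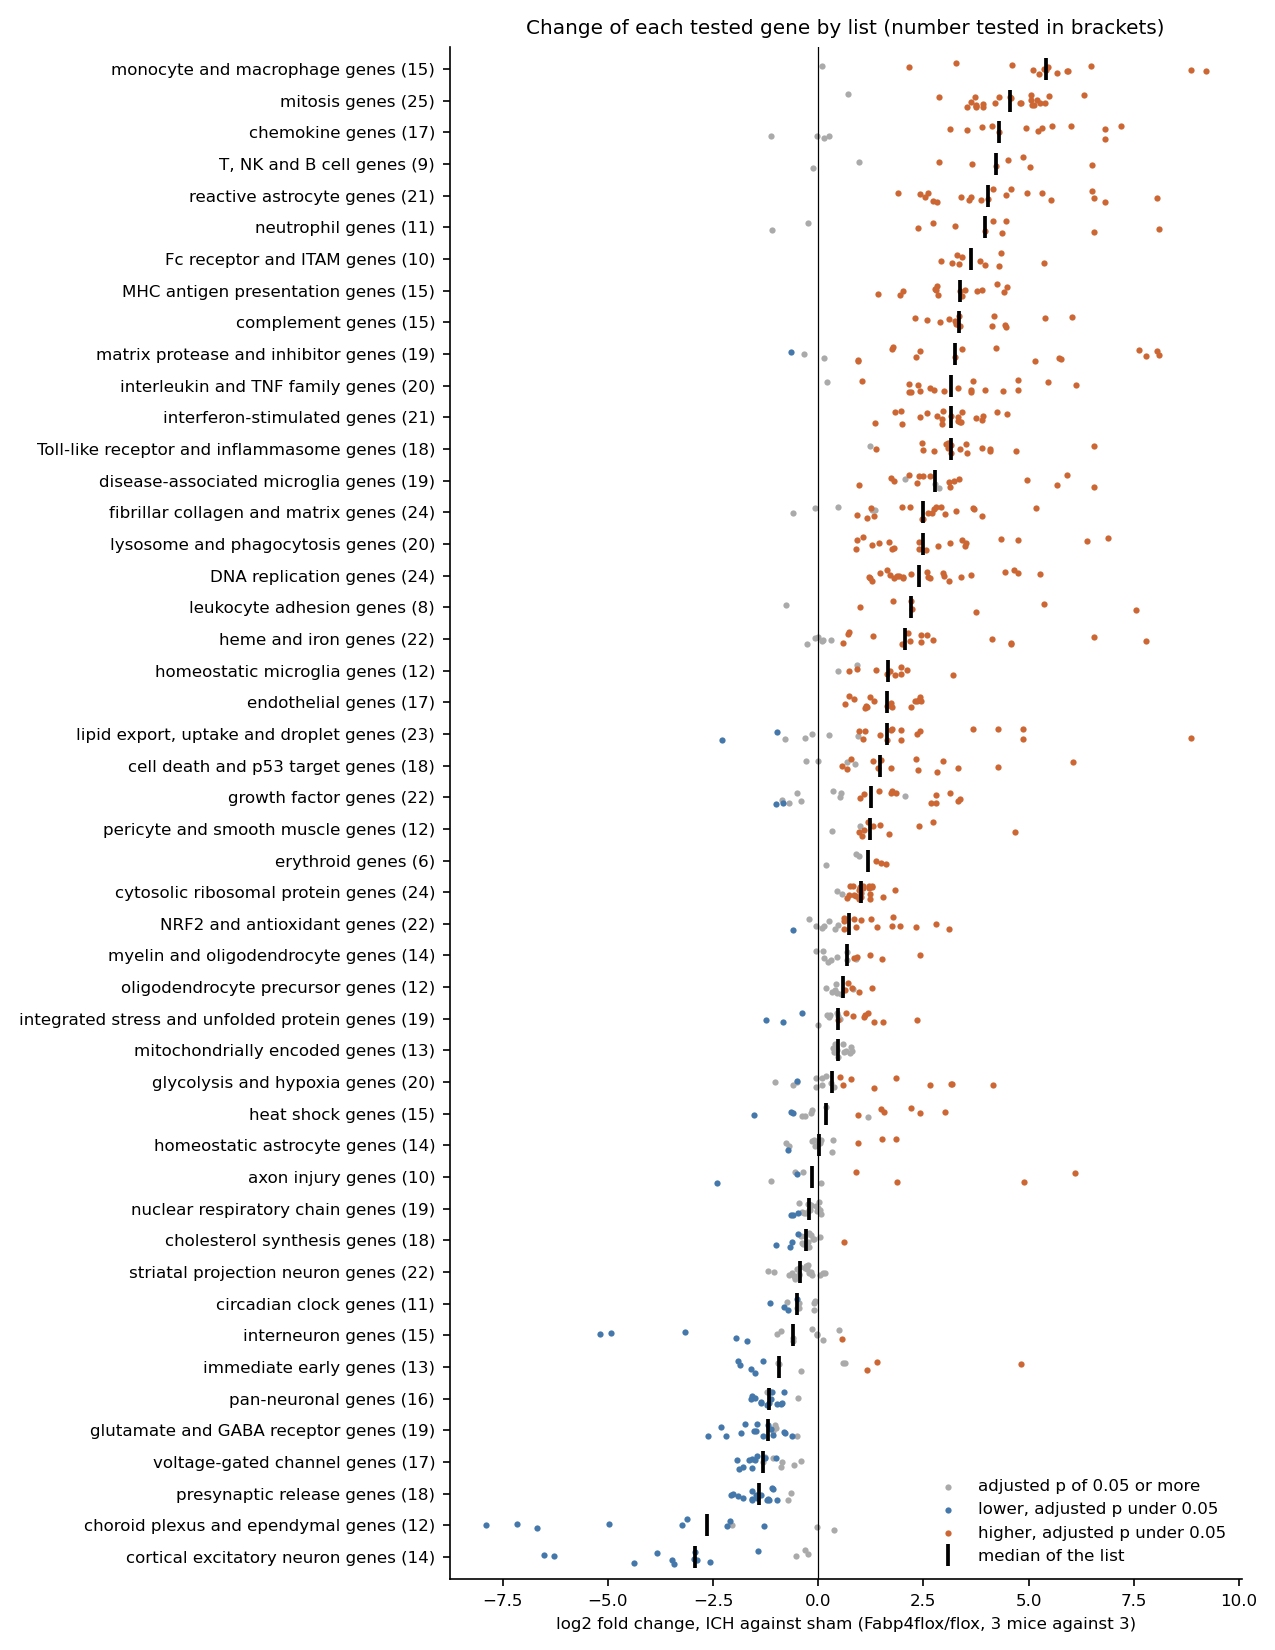
Each point is the log2 fold change (ICH against sham) of 1 tested gene, in rows by list ordered by their median (black tick), with genes called higher in orange, called lower in blue and not called in grey. The medians run from -2.94 for cortical excitatory neuron genes to 5.40 for monocyte and macrophage genes.

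Outside these lists, the largest rises among genes whose groups did not overlap included receptors of myeloid cells. Clec4d, a C-type lectin that senses mycobacterial lipid, had 0, 0 and 2 counts in sham and 488, 541 and 234 in ICH, at least 167-fold higher (adjusted p = 0.000352). Sirpb1c and Cd244a, receptors of the immunoglobulin family on leukocytes, were at least 82.7-fold and 75.2-fold higher (adjusted p = 0.00035 and 0.000385). Tgm1, a transglutaminase known from skin, had 1.46, 0.446 and 0.685 CPM in sham and 437, 532 and 268 CPM in ICH (log2 fold change 8.87 ± 0.53, adjusted p = 0.000279), with ICH mouse 2 the highest. Mylk2, the myosin light chain kinase of skeletal muscle, had 0, 0 and 0 counts in sham and 83, 70 and 17 in ICH, at least 23.0-fold higher (adjusted p = 0.00633). Among the steepest falls, Otp, a transcription factor of hypothalamic neurons, had 26, 112 and 52 counts in sham and 0, 1 and 1 in ICH, at least 18.6-fold lower (adjusted p = 0.00248). The regional make-up of the pieces was not measured, and the part that dissection had in the fall of Otp was not tested. Kcnj13, a potassium channel already counted in the choroid plexus list above, had 118, 137 and 460 and 0, 3 and 1 counts, at least 68.4-fold lower (adjusted p = 0.00129). The falls with the smallest p included Sidt1, at 17.2, 17.2 and 14.7 CPM in sham and 1.09, 1.10 and 1.09 CPM in ICH (log2 fold change -3.90 ± 0.20, adjusted p = 0.000262), and Slit1, an axon guidance ligand, at 66.5, 83.6 and 81.9 and 4.35, 8.08 and 8.96 CPM (log2 fold change -3.43 ± 0.28, adjusted p = 0.00035).

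Some genes with high CPM gave no call. Kif5a, a kinesin of axonal transport, was at 3373, 4000.4 and 2857 CPM in sham and 2548, 4152 and 3292 CPM in ICH (log2 fold change -0.03 ± 0.27, adjusted p = 0.926), and Prnp, the prion protein gene, at 682, 679 and 562 and 561, 694 and 609 CPM (log2 fold change -0.05 ± 0.18, adjusted p = 0.85). Kif5a and Prnp are expressed in neurons, and unlike the genes of the shared neuronal list but 1 they overlapped between groups.

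Grouped by the KEGG annotation of the table, over pathways with at least 20 tested genes, the highest medians belonged to immune pathways. Staphylococcus aureus infection, a pathway of complement, Fc receptor and MHC genes, had a median log2 fold change of 3.25, with 32 of 39 genes called higher and 2 lower. Complement and coagulation cascades had 2.79, with 35 of 47 higher. The lowest median was that of Nicotine addiction, which holds GABA, glutamate and nicotinic receptor genes, at -1.49 with 27 of 35 genes called lower. GABAergic synapse had -0.98 and Glutamatergic synapse -0.88. The pathways share genes with each other and with the lists above.

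The same contrast in the Fabp4CKO mice used other libraries and is given to show where the floxed mice differed. Its ICH mouse 1 had 1 count of Y-linked genes against 1369 to 2251 in the other 5 Fabp4CKO libraries. There, 24.5% of 14737 tested genes rose after ICH and 11.1% fell, 35.6% in all. Of 3785 genes called higher in floxed mice and tested in both genotypes, 77.4% were called higher in Fabp4CKO mice too, and of 2825 called lower, 37.7% were called lower too. With or without a call, 3703 of the 3785 and 2709 of the 2825 changed in the same direction in Fabp4CKO mice. The median log2 fold change was 1.39 in both genotypes for the genes called higher. For those called lower it was -1.06 in floxed and -0.80 in Fabp4CKO mice. The genes were chosen by their call in floxed mice. In the opposite direction, 4 and 7 genes were called. The log2 fold changes of the 14522 genes tested in both genotypes had a Pearson r of 0.88 across genes, which are not independent and share the composition of the tissue. The test of the difference of the ICH effect between the genotypes, over all 12 libraries, called 3 of 15089 genes (0.0199%), which were Folr1, Ttr and Tbx1, and 1497 genes (9.92%) had an unadjusted p under 0.05. Without sham mouse 2 or ICH mouse 2 it called 0 genes, without ICH mouse 1 it called 24 and without ICH mouse 3 it called 11. List medians stood furthest apart for cortical excitatory genes (-2.94 in floxed and 0.09 in Fabp4CKO mice). Choroid plexus and ependymal genes (-2.64 and -0.72) and endothelial genes (1.63 and 0.40) also had the larger median change in floxed mice. Monocyte and macrophage genes (5.40 and 7.77), neutrophil genes (3.97 and 6.17), disease-associated microglia genes (2.78 and 4.96) and chemokine genes (4.30 and 6.31) had the larger one in Fabp4CKO mice. These differences of medians were not tested, and each median covers only the genes of a list that passed the filter.

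**Figure D5:**
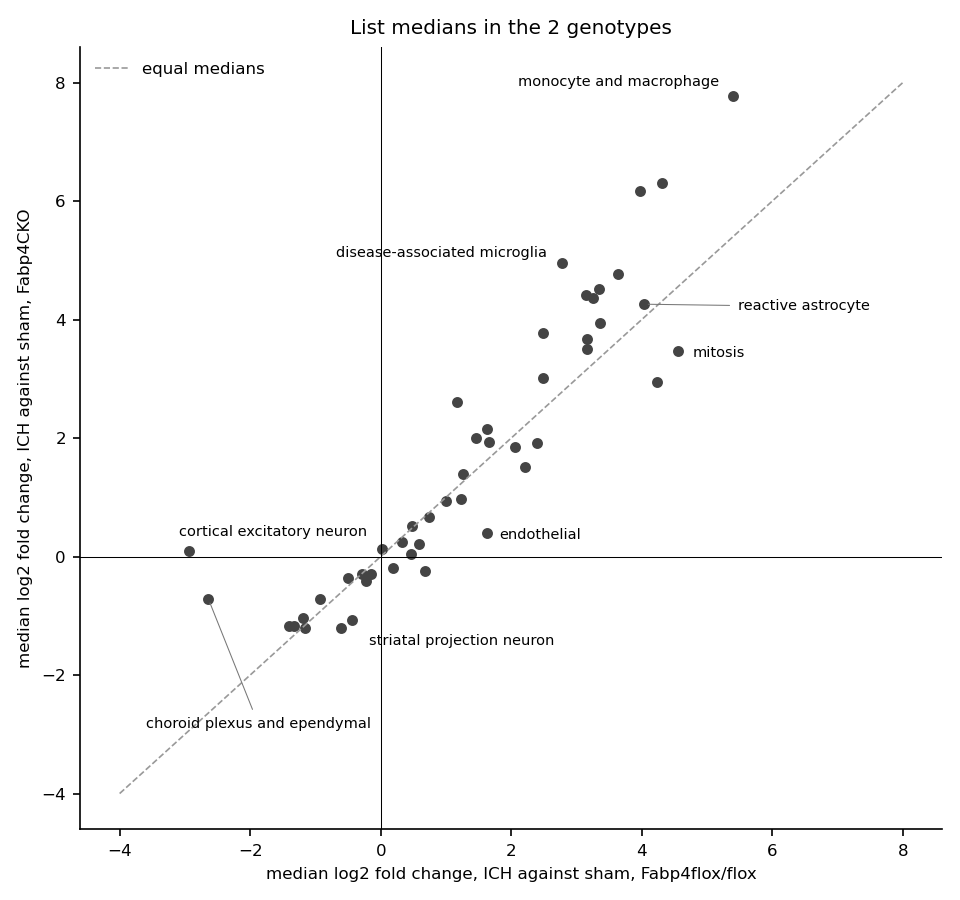
Each point is the median log2 fold change (ICH against sham) of a gene list in Fabp4flox/flox mice (horizontal axis) and in Fabp4CKO mice (vertical axis), and the dashed line marks equal medians. Cortical excitatory genes (-2.94 and 0.09) lie farthest from the line, and the myeloid lists, such as monocyte and macrophage genes (5.40 and 7.77), lie on its Fabp4CKO side.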

How the data were processed

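Polyadenylated RNA of perihematomal or sham tissue was sequenced by the study (Illumina NovaSeq). The deposited table holds estimated counts per gene, which the authors made from aligned reads, and the values are not normalized. The submitters' processing notes name Bowtie2 2.2.8, HISAT2, StringTie 1.3.1 and DESeq2 without their roles, and the genome build is not given in the sources used here.

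Rounding gave whole counts. Samples were grouped by their titles, 3 in each group. Genes were kept with filterByExpr (minimum count 10, minimum total 15), scaled by TMM and tested with edgeR's quasi-likelihood test (edgeR 4.0.16, R 4.3.3) with Benjamini-Hochberg adjustment at 0.05. All adjusted p-values in the text are from that test. CPM used the TMM library sizes, and fold bounds used a floor of 3 counts per library. The floor covers counting error only, and the standard errors include the spread between samples. Alternatives were DESeq2 1.42.0, other scalings and filters, edgeR's exact test, a replicate block, all 12 libraries in one fit and leaving out each library. Figures were drawn with matplotlib 3.10.9.

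The gene lists and the comparison were chosen with earlier results of these data known. Genes named were those preset in each list, the highest, the lowest and the highest-CPM member of each list, Fabp4, the 10 in each direction with the largest fold change or the smallest p among called genes without overlap (for the fold change, at a mean of at least 1 CPM), the 10 with the largest gain and loss of CPM, and the 10 of highest CPM with no call and an absolute log2 fold change under 0.1. Genes of the lists named outside these rules, such as uncalled members, were chosen after their values were seen. On simulated counts for this comparison, 76 of 100 genes changed 4-fold and 19 of 100 changed 2-fold were called. Only these genes of 14719 changed in the simulation, whereas 45.6% were called in the data. The adjustment is stricter where fewer genes change, so these shares do not carry over to the data. Some genes that these rules name are not reported here.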

Additional observations from a re-analysis of the deposited data

Results flagged for a closer look

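The effect of ICH differed between the genotypes for 3 genes by the test of the difference itself in edgeR. Folr1 had a difference of -7.33 (log2, floxed minus Fabp4CKO effect, standard error 0.878, adjusted p = 0.0278), Ttr one of -5.73 (standard error 0.631, adjusted p = 0.0278) and Tbx1 one of 3.66 (standard error 0.446, adjusted p = 0.0278). Ttr had a mean of 1764 CPM in floxed sham mice and 17.3 CPM after ICH, against 17.4 and 9.34 CPM in Fabp4CKO mice, so that the genotypes differed in their sham mice. Tbx1 had 16, 17 and 20 counts in the floxed sham mice and 158, 154 and 105 in the floxed ICH mice. Its means were 0.927 CPM in floxed sham mice and 8.62 CPM after ICH, against 2.09 and 1.58 CPM in Fabp4CKO mice. Folr1 and Ttr are choroid plexus genes, and the part that dissection had in their values was not tested.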

How the results depend on the processing

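A fold change of at least 2 left 2534 genes higher and 1563 lower. Leaving out each of the 6 libraries in turn gave 2633 to 4309 genes higher and 1465 to 3856 lower, the fewest falls without ICH mouse 2 (1465) and sham mouse 2 (1707). The other scalings, filters and tools gave 3372 to 3997 genes higher and 2558 to 3657 lower. All 12 libraries in one fit gave 4370 higher and 3020 lower of 15089 tested. With the replicate block, 3967 genes were higher and 3295 lower. The block moved the striatal genes called lower from 0 to 10 of 22, at a median of -0.46, the channel genes called lower from 10 to 16 and the myelin genes called higher from 5 to 9. Same-numbered sham and ICH libraries deviated together only weakly (correlations of 0.21, 0.03 and 0.14), so the numbers were not taken as pairs. Pvalb, of interneurons, turned from a log2 fold change of 0.11 (adjusted p = 0.867 in edgeR) to -0.57, called lower, without replicate 3 of both groups, an alternative chosen after seeing the data.

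The difference of the ICH effect between genotypes was called for 266 genes by DESeq2, for 1 gene with the replicate block and for 0 to 24 genes when single libraries were left out, against 3 in the report, and the cause was not tested. A filter of at least 10 counts in every library tests fewer genes. It left 4 monocyte and macrophage genes, 3 neutrophil genes, 3 chemokine genes and 0 T, NK and B cell genes called higher.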
